A study of Mus musculus with 7 samples.

Results

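The 7 genes described here encode enzymes and a receptor of the prostaglandin pathway: Pla2g4a, Ptgs1, Ptgs2, Ptges, Ptges2, Ptgds and Ptger4. They were taken by gene symbol from a table of 48795 Ensembl genes, and all 7 were found there. RNA was sequenced from primary oligodendrocyte precursor cells (OPCs), the dividing glial cells that mature into myelinating oligodendrocytes, from wild-type CD-1 mouse pups of postnatal days 4 to 7 with the sexes in equal numbers. The PE group had 3 libraries, with replicate numbers 2 to 4, from cells kept for 1 hour with 20 µM phenylephrine, which activates α1-adrenergic receptors. The control group received no treatment over the same 1 hour and had 4 libraries, with replicate numbers 1 to 4. Library codes in the titles are shared within numbers 2, 3 and 4, which are called pairs below, while control replicate 1 had no PE partner. The set was proposed because Ptgs2 was higher in PE within pairs, so the values of its members in this contrast are a description and not a test.

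Prostaglandins are short-lived lipid signals made from arachidonic acid. The cytosolic phospholipase A2 encoded by Pla2g4a frees arachidonic acid from membranes, and the cyclooxygenases encoded by Ptgs1 and Ptgs2 turn it into the common precursor prostaglandin H2. Terminal synthases then make prostaglandin E2 (Ptges, Ptges2) or prostaglandin D2 (Ptgds), which act on receptors such as EP4, encoded by Ptger4. Ptgs1 is generally described as constitutive and Ptgs2 as an inducible rapid-response gene that responds to cytokines, growth factors, calcium and cAMP.

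Ptgs2 and Ptgs1 encode enzymes with the same reaction, and their promoters are shown because Ptgs2 was past the threshold used below and Ptgs1 was not. In the GRCm38.p6 build, both on the + strand, the windows are chr1:150099781-150100060 for Ptgs2 and chr2:36230176-36230455 for Ptgs1, credited to RefSeq. Each holds the 250 bases before the annotated start and the first 30 bases from it, 280 in all. Capitals mark matches to 3 motifs that factors of rapid responses are known to bind.
Ptgs2: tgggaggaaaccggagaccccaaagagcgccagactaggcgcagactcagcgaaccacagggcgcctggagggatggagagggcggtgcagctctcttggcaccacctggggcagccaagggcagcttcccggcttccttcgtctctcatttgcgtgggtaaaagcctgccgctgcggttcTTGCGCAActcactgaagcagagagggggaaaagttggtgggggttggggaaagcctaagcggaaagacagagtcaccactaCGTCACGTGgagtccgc
Ptgs1: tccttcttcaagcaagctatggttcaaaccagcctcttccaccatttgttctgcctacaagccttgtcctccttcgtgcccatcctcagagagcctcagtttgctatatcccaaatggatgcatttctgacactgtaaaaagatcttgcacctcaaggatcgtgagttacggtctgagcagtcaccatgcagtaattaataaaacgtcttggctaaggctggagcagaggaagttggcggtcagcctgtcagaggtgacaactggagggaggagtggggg
The capitals in Ptgs2 are a palindromic C/EBP motif, TTGCGCAA, at positions -69 to -62 from the start, and a short cAMP response element, TGACG read on the - strand, at 14 to 18, which shares 2 bases with an E-box, CACGTG, at 17 to 22. Both strands were searched, in 32851 promoter windows of the same length, and 0.18% held the C/EBP palindrome, 19.9% the short element and 6.79% the E-box. The Ptgs1 window held none of the 3. Of the other members, only Ptges2 held one of them, the E-box. The full element TGACGTCA (1.74% of all windows) was in no member's window, the AP-1 motif TGANTCA (7.46%) and the NF-kB motif (7.94%) were in that of Ptgds, TATAAA (13.1%) was in 1 of the 2 windows of Pla2g4a, and the GC box GGGCGG (34.7%) was in those of Ptgs2, Ptges and Ptger4. These motifs were chosen with the sequences in view, and a match is a description of letters only. The RefSeq start lay 297 bases from the gene start of the GENCODE M21 annotation for Ptgds and 26566 for Ptges. For the Pla2g4a window with TATAAA it lay 38851 bases away, and for the remaining windows 0 to 6.

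The libraries held 12837463 to 17962339 counted reads, at which 3 counts correspond to 0.170 to 0.238 CPM (counts in a library of 1000000 reads after TMM adjustment). OPC markers such as Ptprz1, Pdgfra and Tnr were abundant, with all 12 tested and a summed level of 10849 to 11877 CPM in PE and 11069 to 11392 CPM in control. Summed markers of maturing oligodendrocytes (Bcas1, Cnp, Mbp and others) ranged from 2450 to 4594 CPM in PE and from 2363 to 7573 CPM in control, and astrocyte markers from 1283 to 1839 CPM in PE and from 1233 to 1812 CPM in control. Markers of microglia and macrophages stayed at 98.1 to 156 CPM in PE and 89.0 to 142 CPM in control, with 15 of 17 tested and 0 at 0 in all libraries. In such bulk libraries a smaller number of cells of one type and less RNA per cell cannot be told apart.

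Ptgs2, the inducible cyclooxygenase, was higher in PE than in control in each pair, and had the largest change among the 6 members that passed the filter on low counts. It stood at 16.1, 11.4 and 4.38 CPM in PE replicates 2, 3 and 4, against 9.80, 3.36 and 1.24 CPM in control replicates 2, 3 and 4 and 26.2 CPM in control replicate 1. Every PE library thus lay above its own partner, as in 11.9% of all tested genes (25.4% had 1 direction in all pairs), while the groups overlapped. The unpartnered control library was the highest of all 7, and control replicate 2 also lay above PE replicate 4. In reads these values were 227 against 130 in pair 2, 144 against 52 in pair 3 and 76 against 22 in pair 4. The ratio of PE to control was 1.64 in pair 2 (exact 95% counting interval 1.32 to 2.05), 3.39 in pair 3 (2.45 to 4.75) and 3.52 in pair 4 (2.168 to 5.95), intervals that cover counting error only. The lower bounds of pairs 3 and 4 lay above the upper bound of pair 2, so the ratio itself varied between pairs by more than counting error. The difference in level was 6.26, 8.04 and 3.14 CPM in pairs 2, 3 and 4, so the pair with the smallest ratio did not have the smallest difference in level.

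In a fit across 15934 genes with the replicate number as a block, Ptgs2 had a log2 change of 1.25 ± 0.19 (SE), or 2.37-fold, and ranked 17 by size of increase. The log2 ratios of the pairs, with a prior count of 2, had a mean of 1.38 ± 0.58 (SD, n = 3 pairs). Of the 6 members tested, 1 was called higher in PE, Ptgs2, and 0 were called lower, where 0.502% of all tested genes were called higher, 0.0377% lower and 0.54% either way (edgeR quasi-likelihood test, Benjamini-Hochberg adjusted p under 0.05). Because the set was chosen on this contrast, nothing is read from that count. Without the pairs the log2 change of Ptgs2 was 0.064 ± 0.92 and 0 members were called, where 0% of all tested genes were called, and leaving out control replicate 1 brought that value to 1.16 ± 0.77, not called either. With the number as a random block in limma-voom the within-pair change was 1.19 ± 0.33 and Ptgs2 was not called (adjusted p = 0.603).

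**Figure D1:**
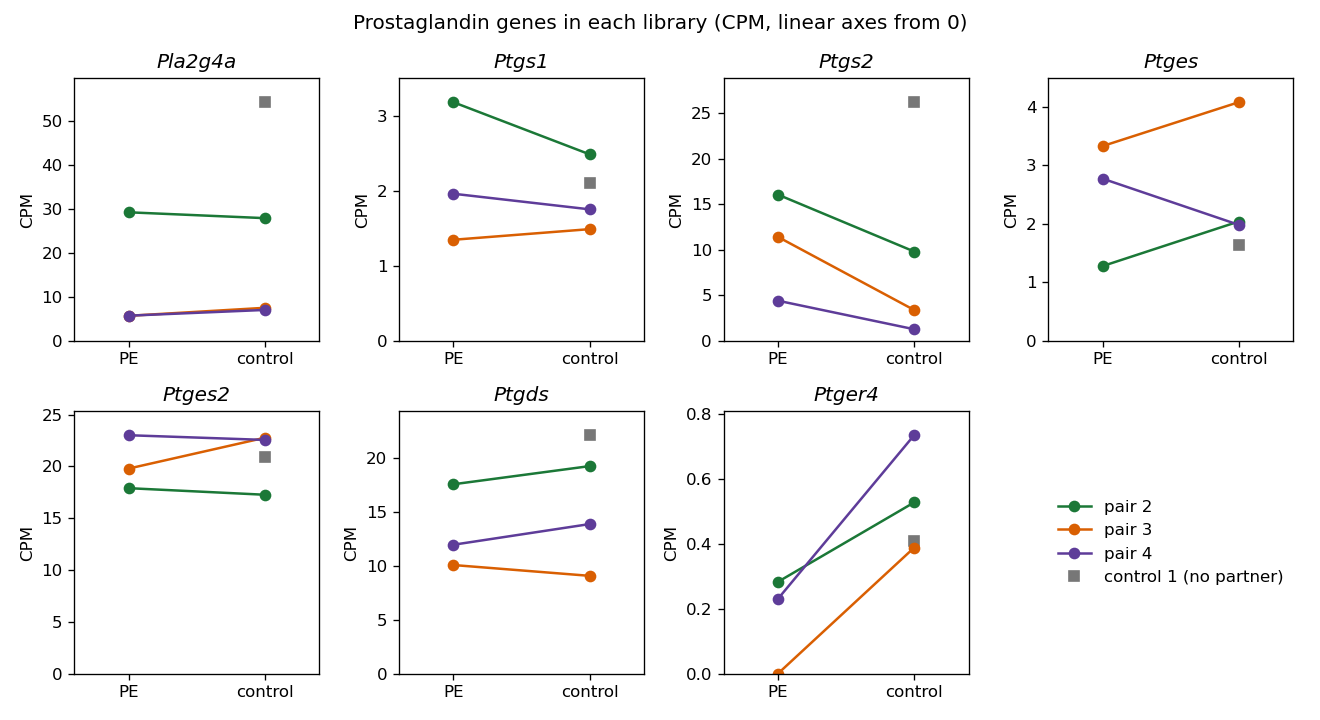
CPM of the 7 genes in each library on linear axes from 0, PE on the left and control on the right, with lines joining the 3 pairs and a square for control replicate 1. Ptgs2 is higher in PE in pairs 2, 3 and 4, while its highest value, 26.2 CPM, is in the control library with no partner.

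Ptgs1, the constitutive cyclooxygenase, was at 3.18, 1.35 and 1.96 CPM in PE replicates 2 to 4, against 2.49, 1.49 and 1.75 CPM in control replicates 2 to 4 and 2.11 CPM in control replicate 1. The groups overlapped, with PE higher in 2 of 3 pairs, and the log2 change within pairs was 0.16 ± 0.24 (SE). Each library held 17 to 45 reads of Ptgs1 in PE and 23 to 33 in the paired controls, so its counting intervals in the 3 pairs all spanned a ratio of 1. Ptgs1 is known to be enriched in microglia, whose marker sum was 148, 98.1 and 156 CPM in PE replicates 2 to 4, against 141, 92.4 and 142 CPM in control replicates 2 to 4 and 89.0 CPM in control replicate 1. Its part in the level of Ptgs1 was not tested.

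Per kilobase of merged exon, the only scale on which levels of different genes are set side by side here, Ptgs2 was the more abundant cyclooxygenase in every library except control replicate 4. Its share of the summed level of both genes was 81.1%, 87.8% and 65.5% in PE replicates 2, 3 and 4, against 77.0%, 65.7% and 37.6% in control replicates 2, 3 and 4 and 91.3% in control replicate 1. In pair 4 Ptgs2 thus had a lower level than Ptgs1 in control and a higher one in PE. This rests on few reads, 22 of Ptgs2 against 31 of Ptgs1 in control and 76 against 34 in PE. The summed level of both genes was 4.33, 2.84 and 1.46 CPM per kb in PE replicates 2 to 4, against 2.78, 1.12 and 0.723 CPM per kb in control replicates 2 to 4 and 6.27 CPM per kb in control replicate 1. These shares rest on annotated exon lengths and not on measured isoforms.

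Pla2g4a, the phospholipase at the head of the pathway, differed far more between replicate numbers than between treatments. It stood at 29.1, 5.62 and 5.65 CPM in PE replicates 2 to 4, against 27.8, 7.44 and 6.95 CPM in control replicates 2 to 4 and 54.2 CPM in control replicate 1. In control, numbers 1 and 2 were high and numbers 3 and 4 low. In PE, which has no number 1, number 2 was high and numbers 3 and 4 low. PE was the lower of the pair in 2 of 3 pairs. The log2 change within pairs was -0.13 ± 0.11 (SE), and without the pairs it was -0.84 ± 0.90.

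The 4 control libraries ranked in the same order for Pla2g4a and Ptgs2, and for the summed maturing oligodendrocyte markers, which were at 7573, 4541, 3585 and 2363 CPM in control replicates 1 to 4. Of the other marker lists, only the choroid plexus and ependymal sum ranked so, at 139, 118, 68.2 and 53.4 CPM in control replicates 1 to 4. For Pla2g4a, control replicates 3 and 4 were close, at 7.44 and 6.95 CPM (115 and 123 reads). In PE, replicates 3 and 4 were about level for Pla2g4a, at 5.62 and 5.65 CPM. The share of all tested genes that rank in this order was not computed, so nothing is read from the shared order. The highest control library exceeded the lowest 21.1 times for Ptgs2 and 7.79 times for Pla2g4a. The SD of log2 CPM over the 4 controls was 1.84 for Ptgs2, larger than in 99.8% of 14943 genes averaging at least 1 CPM in control, and 1.45 for Pla2g4a, larger than in 99.3%, where the median gene had 0.27. Within pairs the maturing oligodendrocyte sum was 4594, 3565 and 2450 CPM in PE replicates 2 to 4, against 4541, 3585 and 2363 CPM in their controls. The choroid plexus and ependymal sum was 172, 70.3 and 44.7 CPM in PE replicates 2 to 4, against 118, 68.2 and 53.4 CPM in their controls. The part of either sum in the spread between numbers and in the within-pair values was not tested.

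**Figure D2:**
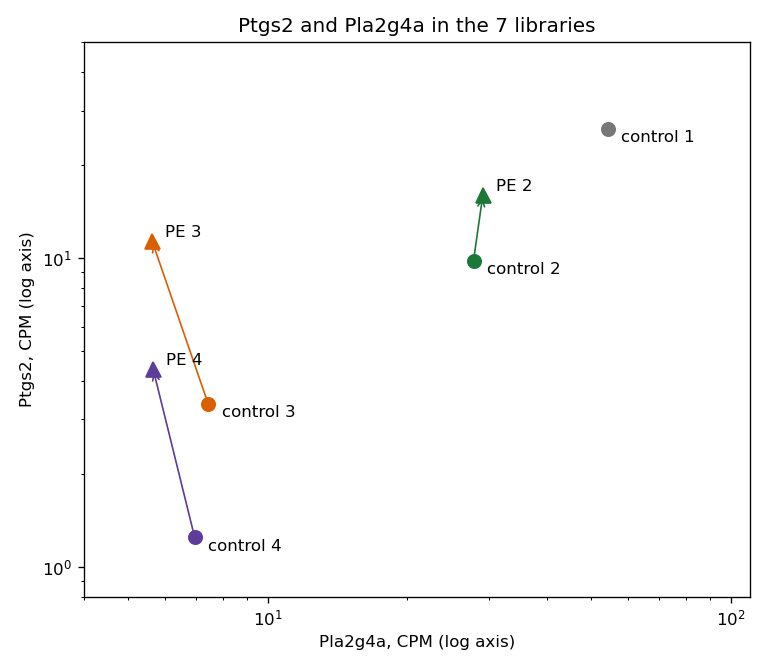
Ptgs2 against Pla2g4a in CPM on log axes, 1 point per library, with arrows leading to each PE library (triangle) from the control of its pair (circle). The arrows run upward, along Ptgs2, while the distance between numbers runs along both genes.

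Pla2g4a and Ptgs2 are also neighbours in the genome. In GRCm38 with the GENCODE M21 annotation, Pla2g4a (ENSMUSG00000056220) lies on the - strand of chromosome 1 from 149829618 to 149961290 and Ptgs2 (ENSMUSG00000032487) on the + strand from 150100031 to 150108227. The gap of 138740 bases holds 3 annotated genes, none of them protein-coding. Ptgds (ENSMUSG00000015090, 25466709 to 25470046), Ptges (ENSMUSG00000050737, 30889471 to 30929863), Ptges2 (ENSMUSG00000026820, 32395896 to 32405772) and Ptgs1 (ENSMUSG00000047250, 36230426 to 36252272) are all on chromosome 2, and Ptger4 (ENSMUSG00000039942) is on chromosome 15 from 5206661 to 5244187. Ttc33, on the opposite strand at Ptger4, is the one tested gene that shares positions with a member.

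The synthases of prostaglandin E2 had within-pair changes near 0 in the fit. Ptges, the inducible membrane-bound synthase often described as working together with Ptgs2, was at 1.27, 3.33 and 2.77 CPM in PE replicates 2 to 4, against 2.04, 4.07 and 1.98 CPM in control replicates 2 to 4 and 1.63 CPM in control replicate 1. PE was higher in 1 of 3 pairs, and the log2 change within pairs was -0.10 ± 0.24 (SE). Ptges2, a membrane-associated synthase, was the steadiest member, at 17.9, 19.8 and 23.0 CPM in PE replicates 2 to 4, against 17.3, 22.8 and 22.6 CPM in control replicates 2 to 4 and 20.9 CPM in control replicate 1. Its log2 change within pairs was -0.04 ± 0.09 (SE), and its highest control library exceeded its lowest only 1.32 times. Per kilobase, Ptges2 stood 10.9, 4.63 and 6.46 times above Ptges in PE replicates 2 to 4, against 6.59, 4.34 and 8.86 times in control replicates 2 to 4 and 9.94 times in control replicate 1.

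Ptgds, the lipocalin-type prostaglandin D2 synthase known from oligodendrocytes and the leptomeninges, was at 17.5, 10.1 and 11.9 CPM in PE replicates 2 to 4, against 19.2, 9.06 and 13.9 CPM in control replicates 2 to 4 and 22.1 CPM in control replicate 1. PE was higher in 1 of 3 pairs and the groups overlapped, with a log2 change within pairs of -0.09 ± 0.11 (SE). Numbers 1 and 2 were again above numbers 3 and 4. All 14 leptomeningeal and mural markers were tested, and their summed level was 373, 149 and 160 CPM in PE replicates 2 to 4, against 324, 153 and 216 CPM in control replicates 2 to 4 and 281 CPM in control replicate 1. Their part in the level of Ptgds was not tested. Ptgds exceeded Hpgds, the haematopoietic prostaglandin D2 synthase, per kilobase in every library, from 11.05 to 28.4 times in PE and from 11.2 to 115 times in control.

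Ptger4, the EP4 receptor, was close to the detection limit and did not pass the filter on low counts. It had 4, 0 and 4 reads in PE replicates 2 to 4, against 7, 6 and 13 reads in control replicates 2 to 4 and 6 reads in control replicate 1, that is 0.283, 0 and 0.231 CPM in PE and 0.528, 0.388, 0.735 and 0.408 CPM in control. All 3 PE libraries lay below all 4 control libraries, as they did for 0.571% of the tested genes and for 1.48% of 2778 genes that failed the filter with 20 to 80 reads in all. Without the filter its log2 change within pairs was -1.65 ± 0.71 (SE), not called, and the exact 95% counting interval of the ratio included 1 in each pair, from 0.115 to 2.11 in pair 2, from 0 to 1.04 in pair 3 and from 0.0746 to 1.02 in pair 4. Reads of Ttc33, 227 to 348 per library, come from the overlapping opposite strand, which this library kit does not tell apart.

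**Figure D3:**
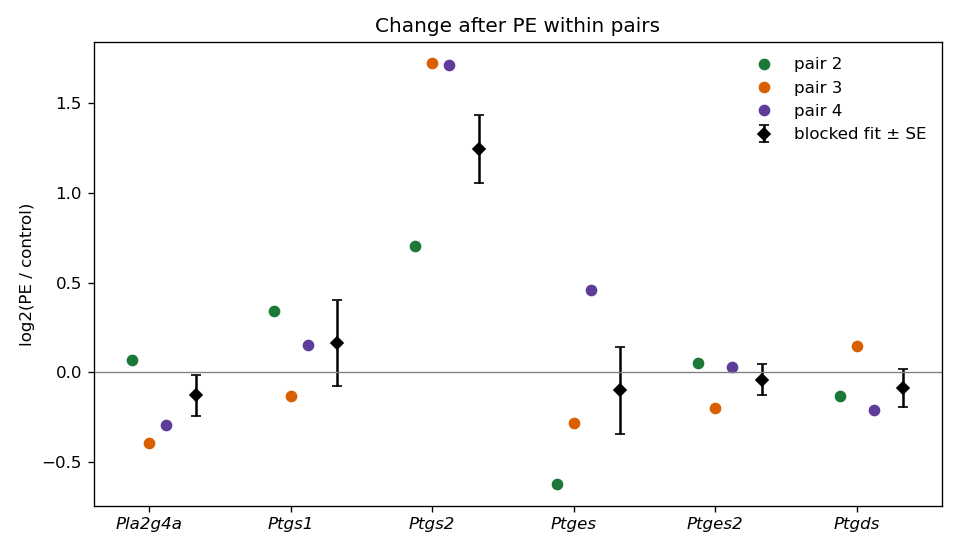
Log2 ratio of PE to control in pairs 2, 3 and 4 (coloured points, CPM with a prior count of 2) and the estimate of the fit with the pairs as a block (diamond, bars ± SE) for the 6 genes tested. Ptgs2 stands at 0.70, 1.72 and 1.71, and the other genes scatter around 0.

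In order of median level per kilobase in the 4 control libraries, the members ran Ptgds (10.03 CPM per kb, range 5.49 to 13.4), Ptges2 (4.29, 3.41 to 4.50), Pla2g4a (2.76, 1.09 to 8.47), Ptgs2 (1.44, 0.272 to 5.73), Ptges (0.511, 0.415 to 1.04), Ptgs1 (0.497, 0.383 to 0.640) and Ptger4 (0.0704, 0.0584 to 0.111). In PE the medians were 7.24, 3.91, 0.884, 2.49, 0.704, 0.505 and 0.0347 CPM per kb in that same gene order. Only Ptgds with Ptges2 and Ptgs1 with Ptger4 were neighbours whose control ranges did not overlap, while all other neighbours in this order overlapped. As the ratio of the highest to the lowest control library, Ptgs2 (21.1) and Pla2g4a (7.79) were above the other members (1.32 to 2.50).

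**Figure D4:**
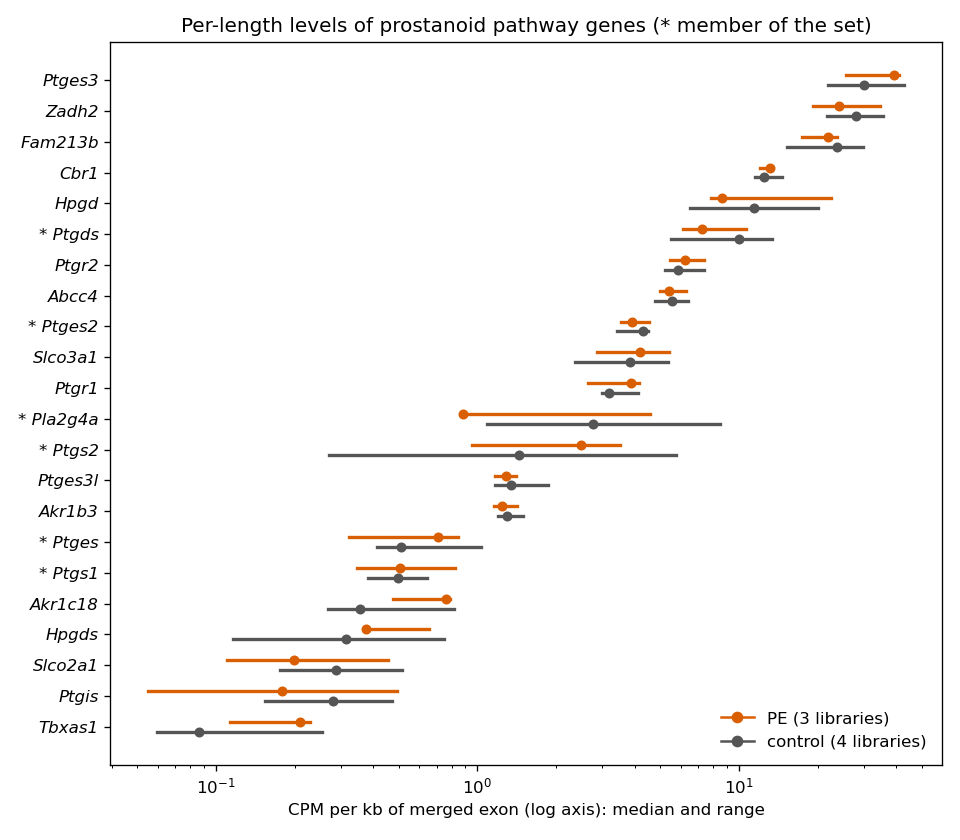
Median (point) and range (line) of CPM per kb of merged exon on a log axis for the members (asterisk) and for the tested synthases, transporters and breakdown enzymes, with PE above control in each row. Ptges3 is the highest, at a median of 39.1 CPM per kb in PE and 30.2 in control, and the lines of Ptgs2 and Pla2g4a are the longest among the members on this log axis, leaving aside Ptger4, which is not drawn.

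The rest of the pathway was compared through lists of genes. Of 30 genes of arachidonate release and recycling, 20 were tested, and 0 rose, 0 fell and 20 did not pass, with a median log2 change within pairs of -0.0075 against -0.0011 over all tested genes. The 4 of them with the highest mean CPM, not corrected for length, are named here. Acsl3 and Acsl4, ligases that activate long-chain fatty acids, with arachidonic acid a known substrate of Acsl4, had log2 changes of 0.14 ± 0.05 each (adjusted p = 0.516 and 0.545), Abhd12, a lipid hydrolase, -0.01 ± 0.05, and Plaa, a phospholipase A2-activating protein, -0.04 ± 0.04. Pla2g6, the calcium-independent phospholipase A2, stood 1.68, 6.91 and 6.19 times above Pla2g4a per kilobase in PE replicates 2 to 4, against 1.77, 5.44 and 5.12 times in control replicates 2 to 4, and was about level with it in control replicate 1 (0.989 times).

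Of 9 other prostanoid synthases, all were tested, and 0 rose, 0 fell and 9 did not pass, with a median log2 change of 0.03. Ptges3, the cytosolic prostaglandin E synthase that is also the Hsp90 co-chaperone p23, averaged 78.0 ± 18.4 CPM in PE (SD, n = 3) and 69.4 ± 20.8 CPM in control (n = 4), with known processed copies elsewhere in the genome that can take or lend reads. Cbr1, a carbonyl reductase, averaged 32.8 ± 1.88 CPM in PE and 32.8 ± 3.50 CPM in control, Fam213b, a prostamide and prostaglandin F synthase, 21.6 ± 3.35 CPM in PE and 23.7 ± 6.75 CPM in control, and Akr1b3, an aldose reductase, 10.7 ± 1.15 CPM in PE and 11.1 ± 1.17 CPM in control. The prostacyclin synthase Ptgis and the thromboxane synthase Tbxas1 averaged 0.702 and 1.35 CPM over all 7 libraries.

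Of 7 genes of transport and breakdown, all were tested, and 0 rose, 0 fell and 7 did not pass, with a median log2 change of -0.04. Hpgd, the dehydrogenase that inactivates prostaglandins, was at 37.8, 14.5 and 13.1 CPM in PE replicates 2 to 4, against 33.8, 15.7 and 10.9 CPM in control replicates 2 to 4 and 23.0 CPM in control replicate 1. The prostaglandin reductase Zadh2 had a log2 change of -0.09 ± 0.05, the reductase Ptgr2 0.10 ± 0.07, the exporter Abcc4 -0.07 ± 0.07 and the organic anion transporter Slco3a1 -0.06 ± 0.07. Of 8 other prostanoid receptors 7 did not pass the filter, and the one tested, Ptger1, averaged 1.58 ± 0.578 CPM in PE and 2.38 ± 1.497 CPM in control and did not pass (-0.11 ± 0.32). Of 15 lipoxygenase and leukotriene genes 3 were tested, and Lta4h (-0.04 ± 0.06), Ephx2 (0.18 ± 0.10) and Alox5 (-0.02 ± 0.17) did not pass.

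Among 24 known regulators of Ptgs2 transcription or mRNA stability, 23 were tested, and 2 rose, 0 fell and 21 did not pass within pairs, where 0.502% of all tested genes were called higher and 0.0377% lower. Because the list was chosen with earlier results of these data known, nothing is read from that count. The median log2 change of the list was 0.01, against -0.0011 over all tested genes. Cebpb, the C/EBP factor long linked to Ptgs2 induction, was at 29.4, 22.2 and 23.5 CPM in PE replicates 2 to 4, against 21.0, 11.1 and 10.97 CPM in control replicates 2 to 4 and 16.9 CPM in control replicate 1. The lowest PE library exceeded the highest control library, as it did in 0.684% of tested genes (1.26% did not overlap in either direction), and the log2 change within pairs was 0.85 ± 0.11 (edgeR adjusted p = 0.00114). The log2 ratio of Cebpb was 0.49 in pair 2, 0.99 in pair 3 and 1.09 in pair 4. Without the pairs Cebpb had 0.75 ± 0.26 and did not pass (adjusted p = 1.00), and the gene overlaps Tmem189 on the opposite strand.

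Fos, an AP-1 subunit, was at 561, 135 and 121 CPM in PE replicates 2 to 4, against 492, 83.5 and 83.3 CPM in control replicates 2 to 4 and 377 CPM in control replicate 1, with a log2 change within pairs of 0.45 ± 0.07 (edgeR adjusted p = 0.00397). This call was lost at a similar log2 change with DESeq2 (0.47, adjusted p = 0.359), with edgeR's robust estimation (0.45, adjusted p = 0.723) and with the random block (0.43, adjusted p = 0.914). Without the pairs the log2 change was 0.073 (adjusted p = 1.00). Of the abundant regulators, Jun had 0.22 ± 0.07 (adjusted p = 0.370), and the mRNA-binding proteins Hnrnpd and Khsrp had -0.04 ± 0.04 and -0.06 ± 0.05, none of which passed.

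**Figure D5:**
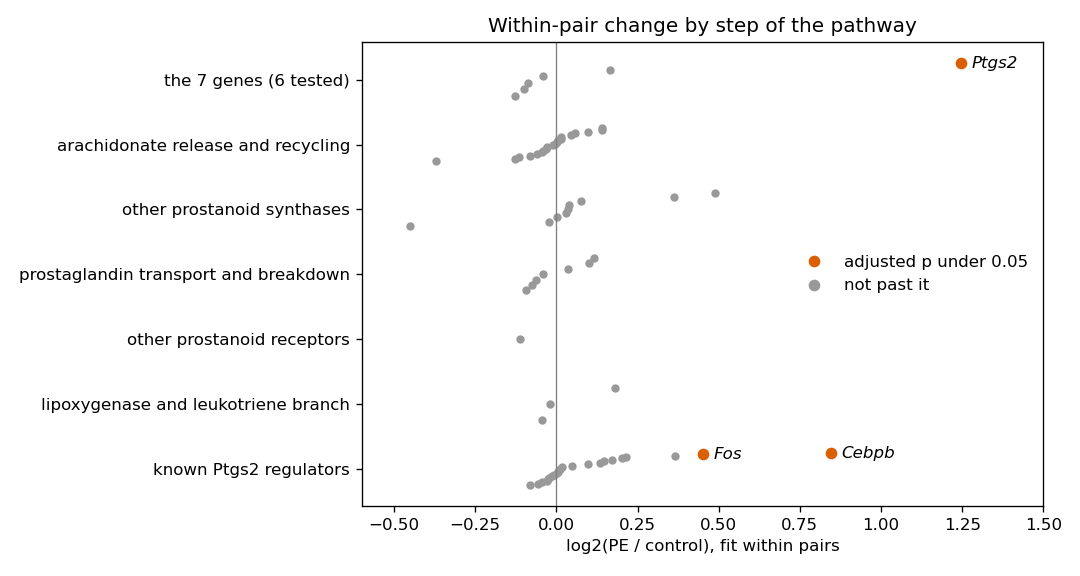
Log2 change after PE in the fit with the pairs as a block, 1 point per tested gene, by step of the pathway, with genes at an adjusted p under 0.05 in orange. Among the members and the 6 lists, Ptgs2, Cebpb and Fos are the genes past that threshold.

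The genes whose log2 CPM followed that of Ptgs2 most closely over the 7 libraries, among 13419 searched, were Smlr1 (Pearson r 0.985), Il22ra1 (0.985), the cAMP phosphodiesterase Pde4d (0.984), the vacuolar sorting gene Vps18 (0.979) and Zswim6 (0.979). Smlr1 and Il22ra1 averaged under 1 CPM, while Pde4d ranged from 75.1 to 163 CPM and had a log2 change within pairs of 0.43 (edgeR adjusted p = 0.00211). For Ptgs1 they were Cyp4f13 (0.980), Cdkl2 (0.979), Ptpdc1 (0.978), the neurexin Nrxn3 (0.976) and the receptor kinase Grk4 (0.975). Libraries of a pair share their number, so these values describe likeness in pattern and carry no test.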

How the data were processed

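The table the authors deposited gives raw read counts by Ensembl gene, without normalization, in 7 columns, 1 a library. GRCm38, mm10, bcl2fastq 2.17, STAR and HTSeq are the builds and tools named in the submitters' processing notes. For the annotation release and the strand setting, nothing was given in the sources used here. SMART-Seq v4 and Nextera XT served for library preparation, per the labels' protocols. Strand is not marked by these kits, and amplified reads are not independent molecules. The protocols also describe steps in live mice (tamoxifen, virus, immunoprecipitation) that do not match primary wild-type cells. The labels name no vehicle. The depth was 12837463 to 17962339 counts per library.

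The counts were analysed in R 4.3.3 with edgeR 4.0.16, using TMM normalization, the filterByExpr filter (minimum count 10, minimum total 15, leaving 15934 genes) and the two-sided quasi-likelihood test, with Benjamini-Hochberg adjustment over all genes and a threshold of 0.05. One fit had the treatment alone and one added the replicate number as a block. The pairing comes from the shared numbers and library codes in the titles, and libraries of a pair deviated together from their groups, with correlations of 0.74, 0.67 and 0.79 in pairs 2, 3 and 4. Some libraries of different numbers did so too, with 0.67 for PE replicate 2 and control replicate 1, 0.36 for PE replicate 4 and control replicate 3 and 0.22 for PE replicate 3 and control replicate 4. Replicates of a group differed beyond counting noise (11.1 to 92.9 for chi-square over its degrees of freedom). Whether each is a separate culture or animal is not stated, and p-values cover only the spread among these libraries, which may be technical. Log2 CPM used a prior count of 2. Each SE is the log2 change over the square root of its F. With the block few residual degrees of freedom remain, so the SEs and p-values draw on variance estimated over all genes. They are not a measure of the spread of 1 gene between its pairs. Gene models were those of GENCODE M21 on GRCm38, and RefSeq promoters matched 7 of 7 members. The fit was tested on simulated data whose changes were the same in every pair, unlike those of Ptgs2. Nothing about Ptgs2 is read from that test. Alternatives used DESeq2 1.42.0 and limma 3.58.1.

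The members, lists and motifs were chosen with earlier results of these data known. The text names all members, list genes past the threshold, and the 5 genes most like Ptgs2 and Ptgs1. It also names the 4 tested genes of each pathway list with the highest mean CPM, which is not corrected for gene length. Hpgd, Pla2g6, Ptgis, Tbxas1 and Hpgds are named beside these for their roles, chosen after their values were seen. The endothelial, neuron and choroid plexus marker lists held 0 genes past the threshold within pairs, apart from Gad1 (higher) among the neuron markers. The other marker lists did so too, apart from Olig2 (lower) among the OPC markers.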

Additional observations from a re-analysis of the deposited data

Results flagged for a closer look

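In the 4 control libraries, 3 of 69 pathway genes checked had a single library far from the other 3. Chance alone picks out about 1 in 20 such groups. The genes share the same 4 libraries, so nothing is read from that count. Ptges was at 4.07 CPM in control replicate 3, against 1.63 to 2.04 CPM in the other controls, and its pair partner, PE replicate 3, was the highest PE library at 3.33 CPM. Pla2g7, the platelet-activating factor hydrolase, was at 27.4 CPM in control replicate 3, against 17.7 to 18.8 CPM in the other controls. For Pla2g7 too, PE replicate 3 was the highest PE library, at 29.7 CPM. Nfatc2, a calcium-regulated transcription factor, was at 24.0 CPM in control replicate 2, against 9.18 to 10.7 CPM in the other controls. Its pair partner, PE replicate 2, was the highest PE library at 25.2 CPM.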

How the results depend on the processing

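Within pairs, Ptgs2 kept its direction under every alternative run and stayed past the threshold under all but the fit with no replicate block (log2 change 0.064, adjusted p = 1.00) and limma-voom with the number as a random block (1.19, chosen after seeing the data), where 0 members were called. Leaving out 1 pair or control replicate 1 gave 1.03 to 1.78 and 1 member called in each case. With a pair left out even fewer residual degrees of freedom remain, so those calls rest largely on variance estimated over all genes. Adjusted p over the alternatives that kept the call ran up to 0.0103. The block changed no other call among the members. Without the pairs, the same alternatives gave Ptgs2 values of 1.25 with the replicate block (1 member called) and -0.37 to 1.16 when single libraries were left out, negative without PE replicate 2, control replicate 3 or control replicate 4 (-0.37, -0.23 and -0.31). The number of genes called within pairs was 86, and became 194 with no filter on low counts, 33 with DESeq2, 0 with no replicate block, 8 with the random block and 52 to 254 without 1 pair (253, 52 and 254 without pair 2, 3 or 4). Without the pairs it was 0 by edgeR (71 genes at an unadjusted p under 0.05) and by limma-voom, 2 by DESeq2 and 86 with the replicate block. The causes of these differences were not tested. Ptger4, Ptges and Ptgs1 had under 100 reads in every library, and Ptgs2 had 76 in PE replicate 4, against 52 and 22 in control replicates 3 and 4, so counting error is large for them. The mean log2 ratio of Ptger4 over pairs was -1.30 with a prior count of 2 and -2.01 with 0.5.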
